A study of Mus musculus with 4 samples.

Results

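A set of 8 transcription factor genes of the melanocyte lineage, Sox10, Sox9, Sox5, Sox6, Sox4, Pax3, Tfap2a and Tfap2b, was examined in the open chromatin of mouse melanoma cells. They are 8 of 21883 protein-coding genes on chromosomes 1 to 19, X and Y. A gene's window was its RefSeq gene body with 50 kb added on each side, and every peak that overlapped the window was taken. Merged over the 4 libraries these peaks formed 166 of the 103629 regions of the genome. The assay was ATAC-seq, which reads out accessible DNA as the places where the enzyme Tn5 can insert adapters, and the cells were cultured B16F10, an established mouse melanoma line. The control group carried a scrambled guide RNA (sgScramble, n = 2) and the other group a guide against Arid1a (sgArid1a, n = 2), a gene for a DNA-binding subunit of the BAF chromatin remodelling complex. No other genotype or treatment is named for either group, and the labels do not say whether the cells were clones or pools. Where a pair of values is given for a group, replicate 1 comes first. The replicates are not stated to come from separate cultures, so their spread may be technical.

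SOX10 and PAX3 are transcription factors of the neural crest that act together on Mitf, the gene of the central melanocyte regulator. SOX9 is the close relative of SOX10 in the SoxE group, SOX5 and SOX6 are SoxD factors without an activation domain of their own, and SOX4 belongs to the SoxC group. All Sox proteins bind DNA through an HMG box, PAX3 binds through a paired domain and a homeodomain, and TFAP2A and TFAP2B, the AP-2 factors of the lineage, recognise palindromic GC-rich sites. Accessible regions within and around such genes include promoters and enhancers, and BAF is known for keeping many enhancers open.

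Replicates 1 and 2 had 82319 and 85613 peaks for sgScramble and 65353 and 71255 peaks for sgArid1a. Peaks covered 74.8 ± 1.30 Mb in sgScramble and 58.2 ± 6.26 Mb in sgArid1a libraries (SD, n = 2 each), a difference of -22.3%. The sgArid1a lists were thus the shorter ones throughout the genome, and the median −log10 p of their peaks was also lower (7.34 ± 0.396 against 9.11 ± 0.128). Without read counts the depth is unknown, and its part in any difference between the groups was not tested. As a check of the labelled cell type, 9 of 9 melanocyte lineage genes had a peak at the start or near an end in all 4 lists, and 13 of 17 markers of other cell types had none in any list. Col1a1, a fibroblast collagen gene, and Myod1, a muscle gene, had one in all 4 lists. Peak positions cannot show whether Arid1a was disrupted, and that was not checked.

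Listed starts of these genes were taken as open where a peak lay over them. The RefSeq table (GRCm38.p6) held 11 starts for 5 of the 8 genes. At Sox4, at 1 of 2 starts of Tfap2a and at 2 of 6 starts of Sox6 a peak lay over the start in all 4 lists. Over the listed starts of Sox5 and Tfap2b there was no peak in any list. The Sox5 start listed, at 143947106 on the minus strand, lay inside the gene. A peak lay over the higher coordinate end of Sox5 (144782287), upstream on that strand, in all 4 lists. The 250 bases before the start are given 5′ to 3′ on the gene's strand for all 4 open starts and, chosen after its values were seen, for the Tfap2b start without a peak. Capitals mark matches to the Sox motifs ACAAAG and ACAAT on either strand.
Sox4 (minus strand, chr13:28953700-28953949): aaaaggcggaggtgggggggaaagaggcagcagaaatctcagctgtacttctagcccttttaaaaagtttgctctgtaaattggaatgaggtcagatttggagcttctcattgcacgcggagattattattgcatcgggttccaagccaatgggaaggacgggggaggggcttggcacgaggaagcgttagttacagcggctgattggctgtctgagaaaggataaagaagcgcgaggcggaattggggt
Tfap2a (minus strand, chr13:40733796-40734045): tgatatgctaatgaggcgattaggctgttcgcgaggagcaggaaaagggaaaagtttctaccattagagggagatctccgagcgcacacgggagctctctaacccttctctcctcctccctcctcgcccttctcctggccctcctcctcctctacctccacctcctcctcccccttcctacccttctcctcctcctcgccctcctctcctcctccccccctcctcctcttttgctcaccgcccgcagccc
Sox6 (minus strand, chr7:116031048-116031297): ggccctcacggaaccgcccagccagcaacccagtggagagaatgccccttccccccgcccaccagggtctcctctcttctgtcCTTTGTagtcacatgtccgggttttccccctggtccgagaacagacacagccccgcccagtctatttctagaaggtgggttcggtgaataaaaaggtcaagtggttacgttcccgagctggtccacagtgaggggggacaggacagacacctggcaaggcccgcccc
Sox6 (minus strand, chr7:115824711-115824960): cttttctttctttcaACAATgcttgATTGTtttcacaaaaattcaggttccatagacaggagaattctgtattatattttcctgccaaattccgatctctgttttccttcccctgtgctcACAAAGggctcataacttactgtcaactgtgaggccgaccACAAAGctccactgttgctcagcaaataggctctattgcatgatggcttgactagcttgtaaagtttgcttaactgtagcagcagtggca
Tfap2b (plus strand, chr1:19211804-19212053): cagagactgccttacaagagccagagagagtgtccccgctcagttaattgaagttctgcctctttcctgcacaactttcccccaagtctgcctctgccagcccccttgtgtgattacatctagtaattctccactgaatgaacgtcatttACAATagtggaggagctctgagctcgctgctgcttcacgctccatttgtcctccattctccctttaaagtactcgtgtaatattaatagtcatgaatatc
The open starts had a GC content of 50.8% (Sox4), 60.4% (Tfap2a), 60.8% (the first Sox6 sequence) and 41.6% (the second), with 11, 10, 10 and 2 CpG dinucleotides. The Tfap2b sequence had 46.4% and 5, the 7 starts without a peak ran from 34.0% to 47.6% and from 1 to 10, and the median over all 32851 listed promoters was 52.4% and 6. Open starts were thus both above and below the median, and the second Sox6 sequence lay below that of Tfap2b. The first Sox6 sequence held 1 match to ACAAAG and the second 2, a motif in 16.5% of all promoters of this length. The second Sox6 sequence held 2 matches to ACAAT and the Tfap2b sequence 1, a motif in 27.7%. None of the 5 sequences held the AP-2 motif GCCNNNGGC (13.7% of all promoters), the E-box CACGTG (6.02%), the AP-1 motif TGANTCA (6.75%) or the palindromic paired-type homeodomain motif (0.384%), each searched on both strands.

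Across the 8 windows the peaks of the 4 lists merged into 166 regions, of which 89 were shared by every list. Regions called in both controls and absent from both sgArid1a lists, termed lost here, made up 16 of the 117 seen in both controls (13.7%, with a 95% Clopper-Pearson interval from 8.02% to 21.3% that covers counting error over regions only). Over all regions of the genome the lost share was 12.9%, so the share at these genes was near the background. Regions with the reverse pattern, termed gained, made up 0 of the 91 present in both sgArid1a lists. The approximate 95% upper limit for such a count is a share of 3.30% (3 counts of 91). The genome-wide gained share, 1.39%, lies below that limit, so a shortage of gained regions was not detectable at this number of regions.

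The lost regions fell at 6 of the 8 genes. Sox5 had 5 of its 41 regions lost, Sox6 3 of 27, Pax3 3 of 19, Sox10 3 of 15, Tfap2a 1 of 8 and Sox4 1 of 4. Sox9 lost 0 of 1 and Tfap2b 0 of 2. All 16 lay over 1 kb from any end of a protein-coding gene (16 of 106 such regions, 15.1%, against 15.1% in the genome), and 9 overlapped the body of their gene. They were narrow. The median length under sgScramble peaks was 460 bp in lost regions and 1178.5 bp in regions shared by every list, where the genome had 469.5 and 973 bp. Without sgScramble replicate 1 the lost count was 39 of 145 (26.9%, against 20.8% in the genome). Without sgArid1a replicate 2 it was 26 of 119 (21.8%, against 23.1%). Fewer lists had to agree in these settings, and the cause of the higher counts was not tested. With lists cut to equal length the lost count was 4 of 91 (4.40%, against 6.97%).

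**Figure D1:**
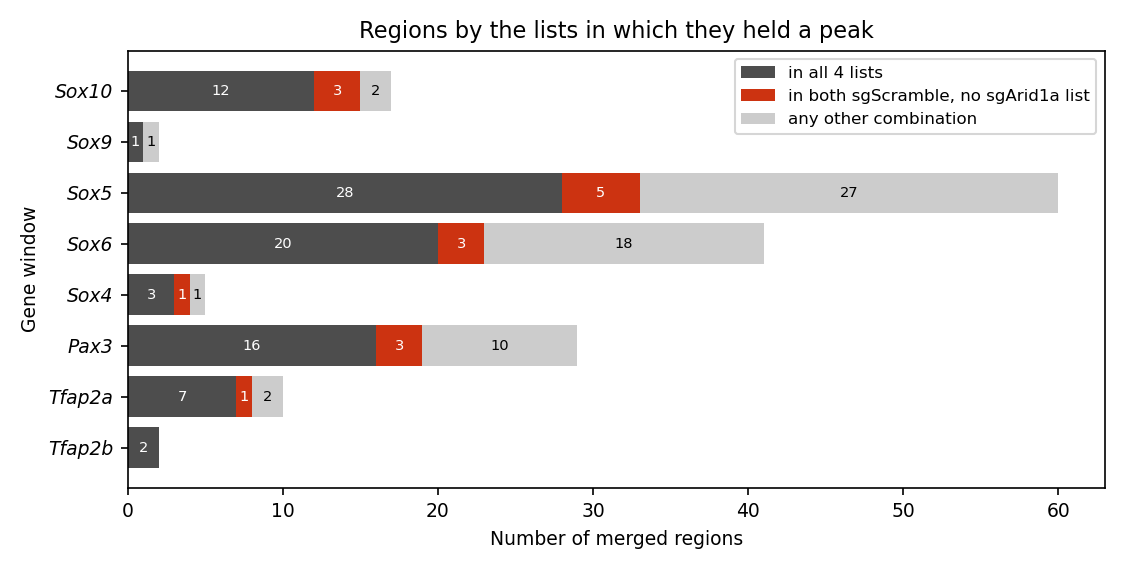
Number of merged regions (x axis) in each gene window (y axis), split by the lists that held a peak: all 4 lists (dark grey), sgScramble lists only, both of them (red), or any other combination (light grey). Sox5 had the most regions, 60, with 5 lost, and Sox9 and Tfap2b had 2 each with none lost.

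Regions that were neither in all lists, lost nor gained numbered 61, and most of these were seen in a single list. Of the single-list regions, 22 were called in sgScramble replicate 2 alone, 5 in sgScramble replicate 1 alone, 8 in sgArid1a replicate 1 alone and 6 in sgArid1a replicate 2 alone. The longest list, with 85613 peaks, was that of sgScramble replicate 2. Single-list regions were not counted over the genome, so these numbers cannot be called particular to the 8 genes. Regions in both sgScramble lists that were missing from sgArid1a replicate 1 only numbered 10 (8.55%, against 10.2% in the genome), and those missing from sgArid1a replicate 2 only numbered 2 (1.71%, against 4.54%). Of the 10, 6 were at Sox5 and 4 at Sox6, and both of the latter kind were at Sox5.

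Covered length, the number of bases in a window that lie under a peak, was lower in both sgArid1a libraries than in both sgScramble libraries at Sox10, Sox5, Sox6 and Pax3. It was higher in both at Sox9, and the groups overlapped at Sox4, Tfap2a and Tfap2b. Among 19153 protein-coding gene windows with a peak, 65.3% were lower in both sgArid1a libraries and 1.7% higher, so 4 of 8 is no more than the background. The exact two-sided permutation test over the 4 libraries cannot give a p below 0.333, and no difference below passes a threshold of 0.05. Summed over the 8 windows, peaks covered 140128 bp (replicate 1) and 142283 bp (replicate 2) for sgScramble, and 109505 bp (replicate 1) and 127725 bp (replicate 2) for sgArid1a. Both sgArid1a values lay below both sgScramble values, with a mean difference of -22590.5 bp or -16.0% (141206 ± 1524 against 118615 ± 12884 bp, SD, n = 2 each, exact permutation p = 0.333). Divided by the length of the whole list, the direction turned: the 8 windows took up 1887 ± 12.4 bp per Mb of covered genome in sgScramble and 2039 ± 2.11 bp per Mb in sgArid1a libraries (+8.08%, exact permutation p = 0.333).

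**Figure D2:**
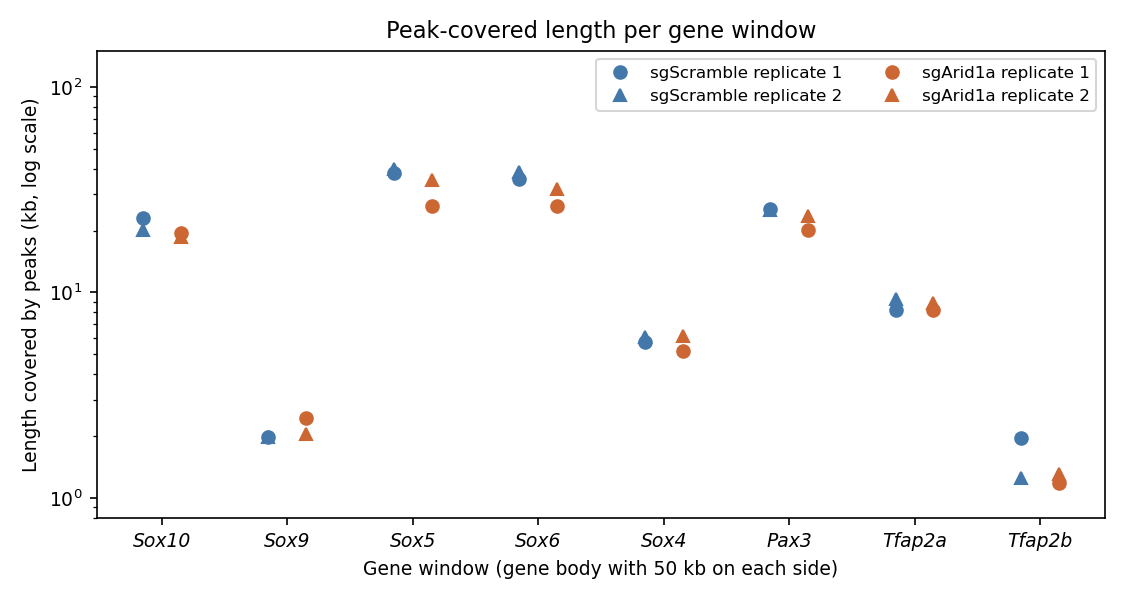
Length covered by peaks (y axis, kb, log scale) in each gene window (x axis), with a point for each library: blue for sgScramble, orange for sgArid1a, circles for replicate 1 and triangles for replicate 2. At Sox10, Sox5, Sox6 and Pax3 both orange points lie below both blue points, and at Sox9 both lie above.

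Sox10, on chromosome 15 at 79154913 to 79164490 (gene ID 20665), stood in the most open surroundings of the 8. Peaks covered 19.7% of its 110 kb window in sgScramble cells, a share above that of 99.8% of the 21883 windows. The window also holds Micall1, 1700088E04Rik and Polr2f, an RNA polymerase subunit gene, and 11 of its 17 regions lay nearest to an end of another protein-coding gene. Covered length was 23047 and 20217 bp in sgScramble replicates 1 and 2 and 19494 and 18703 bp in sgArid1a replicates 1 and 2. All sgArid1a values were the lower ones, by -11.7% on average (exact permutation p = 0.333). Within the gene body itself the groups overlapped, with 2188 and 1294 bp against 1926 and 2028 bp, so the non-overlapping difference lay in the flanks, which hold the other genes.

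The widest region of the Sox10 window, at 79162257 to 79167314, lay over the end of Sox10 with the higher coordinate and reached into the lncRNA gene Gm10863. It covered 4958, 4064, 4750 and 4812 bp in the 2 sgScramble and then the 2 sgArid1a lists, so that both sgArid1a values lay between the sgScramble values. Its fold, the authors' ratio of signal over background for each peak, was among the lowest in every list, at 1.80, 1.93, 1.91 and 1.85. As a percentile of the peaks of the same list these were 0.279, 0.618, 0.242 and 0.303, while the −log10 p of the same peaks stood at percentiles 58.3, 69.2, 63.6 and 66.2. A region beside it at 79169078 to 79169898, also in all lists, had a mean fold percentile of 0.240. A region within Gm10863 at 79207808 to 79209542, 19598 bp from Pick1, covered 1704 and 1725 bp in the sgScramble lists and 762 and 747 bp in the sgArid1a lists. Though narrower, it did not rank lower by −log10 p, at percentiles of 83.8 and 83.4 against 84.8 and 84.5. Its fold percentiles, 4.67 and 3.41 against 4.27 and 2.92, overlapped between the groups. By its mean over the 4 lists, the strongest region of the window by fold, at 79108092 to 79109853, lay at Micall1, with a percentile of 83.0 and 82.4 in the sgScramble lists and 91.3 and 90.3 in the sgArid1a lists. In sgScramble replicate 1 another region within Gm10863, at 79201194 to 79202579 and 26561 bp from Pick1, ranked higher still (84.8). Its percentile was 76.2 in sgScramble replicate 2 and 49.9 and 59.0 in the sgArid1a lists.

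Of the 3 lost regions at Sox10, the one with the highest sgScramble fold percentile (mean 5.27) lay at 79183803 to 79184345, 19313 bp beyond the gene. Both others lay nearest to a neighbouring gene, at 79131156 to 79131796 and 79142951 to 79143283, with mean percentiles of 5.17 and 0.762.

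Pax3, on chromosome 1 at 78101267 to 78197136 (gene ID 18505), carried 29 regions in its 196 kb window, of which 21 overlapped the gene body. Covered length was 25508 and 25314 bp in sgScramble replicates 1 and 2 and 20098 and 23423 bp in sgArid1a replicates 1 and 2. The sgArid1a libraries were lower by -14.4% on average (exact permutation p = 0.333). With lists of equal length the direction turned, from a mean of 17896.5 bp for sgScramble to 20724.5 bp for sgArid1a (exact permutation p = 0.333). Per Mb of covered genome the window took up 340 ± 7.74 bp in sgScramble and 374 ± 0.172 bp in sgArid1a libraries, again the opposite direction.

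Peaks inside Pax3 had low folds in all 4 libraries, and peaks around it did not. The median fold percentile of gene body peaks was 1.80 and 1.99 in the sgScramble replicates and 2.02 and 1.31 in the sgArid1a replicates. Outside the gene body, within the same window, it was 55.9 and 52.8 in the sgScramble and 55.8 and 50.7 in the sgArid1a lists. Every list thus showed the contrast, and both inside and outside the gene the groups overlapped. In folds, the medians were 2.20 and 2.21 against 2.42 and 2.17 inside the gene, and 4.22 and 4.03 against 4.10 and 3.77 outside it. Of the gene body peaks, 12 of 14 and 14 of 16 in sgScramble and 12 of 14 and 11 of 13 in sgArid1a lists stood under the 10th percentile. Over the whole window the median fold percentile averaged 4.29 over the 4 lists, a value undercut by 9 of 18311 gene windows with a peak in every list. That level depended on the peaks of lowest −log10 p. With lists cut to equal length by −log10 p, its mean went from 3.44 to 32.9 in sgScramble and from 5.14 to 20.75 in sgArid1a libraries. By −log10 p the whole window of the full lists was less extreme, with an average percentile of 36.9 and 11.3% of windows below it. The gene body peaks were low by −log10 p too. Their median percentile was 18.2 and 18.9 in the sgScramble and 27.8 and 24.8 in the sgArid1a lists. Outside the gene body it was 74.5 and 69.2 against 67.1 and 71.0.

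**Figure D3:**
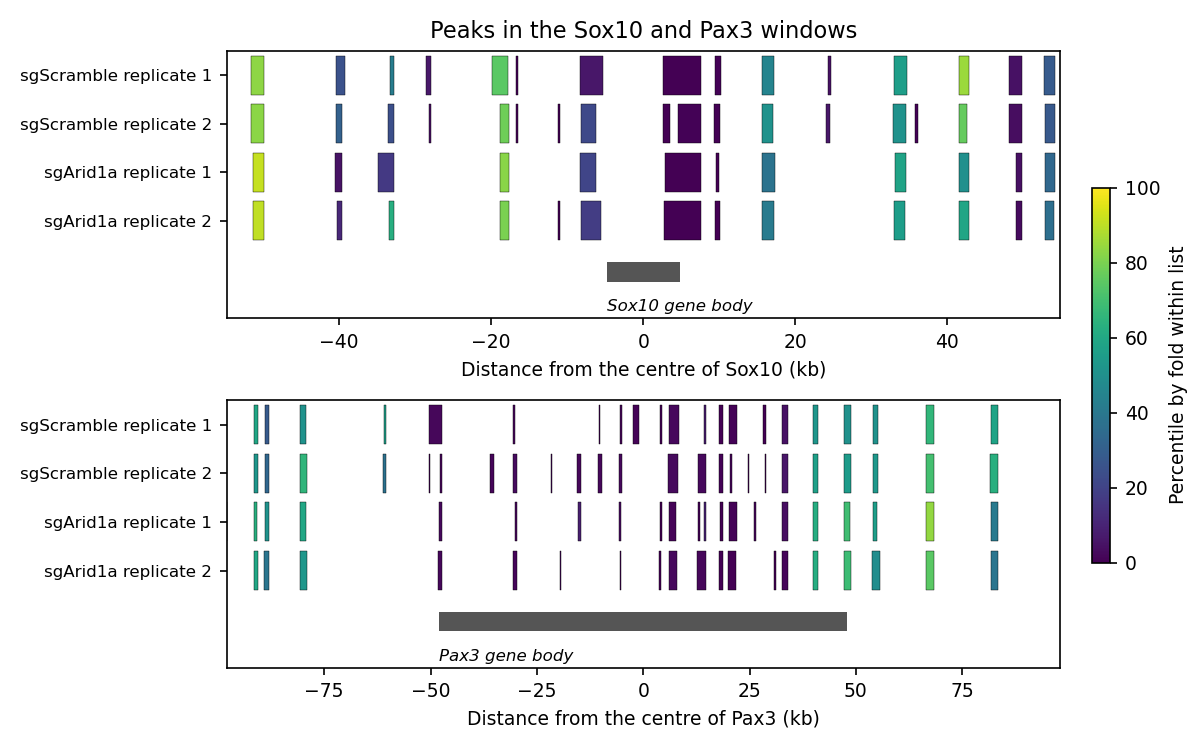
Peaks of the 4 lists (rows) in the Sox10 window (upper panel) and the Pax3 window (lower panel) by distance from the centre of the gene (x axis, kb), to scale, with the gene body as a grey bar. Colour gives the percentile of a peak's fold within its own list, and the dark peaks over the Pax3 gene body, with medians of 1.31 to 2.02, contrast with the lighter ones on both sides in every list.

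Both ends of Pax3 lay in a region present in all 4 lists, and these regions differed in fold. At the higher coordinate end, the region at 78196380 to 78198148 covered 1681 and 1722 bp in the sgScramble and 1484 and 1599 bp in the sgArid1a lists. Its fold percentile was 50.1 and 54.5 against 69.3 and 68.5, so it was narrower but ranked higher in both sgArid1a lists. At the lower coordinate end, the region at 78098774 to 78101994 had percentiles from 1.58 to 2.02 and covered 3197 bp in sgScramble replicate 1 but 881, 867 and 938 bp in the other lists. In 3 of the 4 lists a peak lay over that end itself. Pax3 had 3 lost regions, of which the highest ranked (mean percentile 46.7) lay at 78088139 to 78088818, 12449 bp outside the gene. Both others lay inside the gene, at mean percentiles of 1.32 and 0.264.

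Low folds in regions of every list were not limited to Pax3. Over the 8 windows, 14 of the 89 regions in all lists had a mean fold percentile under 10 (15.7%), against 3.34% in the genome: 8 at Pax3, 3 at Sox10, 2 at Tfap2a and 1 at Sox6. They were not narrow, with a merged length of 679 to 5058 bp and a median of 1650.5 bp, against 1382 bp in the other regions of the members. Among regions of both sgScramble lists, those with a mean sgScramble percentile under 10 were lost at 6 of 19 (31.6%, against 32.9% in the genome), and the others at 10 of 98 (10.2%, against 11.5%). In each class the share at these genes was near the background. What sets the low folds at Pax3 and Sox10 was not tested.

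**Figure D4:**
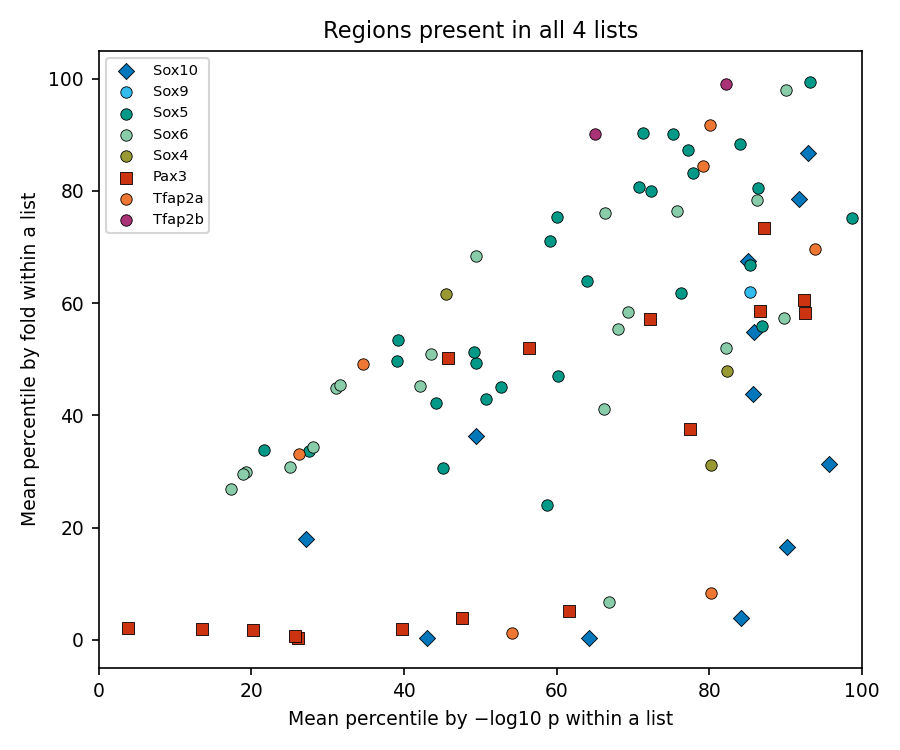
Each point is 1 of the 89 regions present in all lists, placed by its mean percentile by −log10 p (x axis) and by fold (y axis) within a list, coloured by gene, with squares for Pax3 and diamonds for Sox10. The 14 points under the 10th fold percentile belong to Pax3 (8), Sox10 (3), Tfap2a (2) and Sox6 (1), and their −log10 p percentiles run from 3.89 to 84.1.

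Sox9, the SoxE relative of Sox10, had little open chromatin nearby. Its window on chromosome 11 (gene at 112782210 to 112787757, gene ID 20682) held 2 regions, of which 1 was in all lists, at 112781009 to 112783081 over the lower coordinate end of the gene. That region covered 1968 and 1976 bp in sgScramble and 1921 and 2036 bp in sgArid1a replicates 1 and 2, and the groups overlapped. Its fold percentile was 54.6 and 69.0 against 62.0 and 62.3. The window total was higher in both sgArid1a libraries (2442 and 2036 bp). In sgArid1a replicate 1 this included a peak of 521 bp at 112748304 to 112748824 that no other list held. Without that library, the sgArid1a value stood 64 bp above the sgScramble mean.

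Sox5, on chromosome 6 at 143828425 to 144782287 (gene ID 20678), encodes a SoxD factor known to counteract SOX10 in melanocytes, and had the largest number of regions. Covered length in its 1054 kb window was 38170 and 39670 bp in sgScramble replicates 1 and 2 and 26470 and 35350 bp in sgArid1a replicates 1 and 2. Both sgArid1a libraries were lower, by -20.6% on average (exact permutation p = 0.333). Of windows over 500 kb, 78.2% were lower and 0.295% higher in both sgArid1a libraries. Peaks numbered 46 and 52 against 34 and 39, and 28 of 60 regions were in all lists. Of those 28, 14 ranked lower by fold in both sgArid1a lists and 4 higher, against 30.9% and 20.7% of such regions in the genome.

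The strongest region of Sox5 lay inside the gene at 143845607 to 143846133, 17182 bp from its lower coordinate end. It had a fold of 8.99 and 9.10 in the sgScramble lists and 7.46 and 7.92 in the sgArid1a lists, all above the 98th percentile, and 429 to 525 bp were covered. Both sgArid1a ranks (98.5 and 99.6) lay below both sgScramble ranks (99.9 and 99.9). Over the higher coordinate end a region at 144781256 to 144783327 was in all lists, with percentiles of 49.3, 43.6, 27.2 and 48.5. All 5 lost regions were inside the gene, the highest ranked (mean percentile 46.3) at 144560189 to 144560657.

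Sox6, the other SoxD gene, on chromosome 7 at 115470872 to 116040776 (gene ID 20679), resembled Sox5 in the size of the difference. Covered length was 35491 and 38514 bp in sgScramble and 26449 and 31951 bp in sgArid1a replicates 1 and 2, lower in both sgArid1a libraries by -21.1% on average (exact permutation p = 0.333). At both SoxD genes sgArid1a replicate 1 was the lowest of the 4 libraries, as it also was at Pax3, Sox4, Tfap2a and Tfap2b. Its list was the shortest of all, with 65353 peaks. Per Mb of covered genome the windows of the pair differed by +1.68% (Sox5) and +1.44% (Sox6), with overlapping groups.

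A region in all lists stood at the outer end of Sox6 and another over a listed start. The one at 116039558 to 116040795, at the higher coordinate end of the gene, covered 1104 and 1129 bp in sgScramble and 1149 and 1020 bp in sgArid1a lists. It ranked at 97.7 and 97.1 against 98.4 and 98.6 by fold, slightly higher in both sgArid1a lists. A peak lay over that end itself in 1 of the 4 lists, and within 1 kb of it in all 4. The start of the first Sox6 sequence printed above lay in the widest region, at 116029962 to 116034719, which covered 4758 and 4649 bp against 4430 and 4531 bp with fold percentiles of 5.10 to 8.38. That region was narrower in both sgArid1a lists, as were 40.6% of regions in all lists over the genome. The highest ranked of 3 lost regions (mean percentile 47.7), at 115944139 to 115945584, covered 1446 bp in sgScramble replicate 1 and 383 bp in replicate 2.

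Sox4, a SoxC gene on chromosome 13 at 28948919 to 28953699 (gene ID 20677), had 5 regions. Covered length was 5763 and 6099 bp in sgScramble and 5171 and 6103 bp in sgArid1a replicates 1 and 2, and the groups overlapped. The region over its start and gene body, at 28950434 to 28954030, was in all lists and covered 2507 and 2554 bp against 2577 and 3500 bp, where sgArid1a replicate 2 held 1 peak and each other list 2 separate ones. Its fold percentile was 29.6 and 35.5 against 29.9 and 29.5. By fold, the highest ranked region in all lists lay at 28941443 to 28942749 (mean percentile 61.6) and covered less in both sgArid1a lists, 791 and 749 bp against 994 and 1012 bp. The lost region, at 28917815 to 28918231, ranked at 49.4 in sgScramble replicate 1 and 9.54 in replicate 2.

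Tfap2a, on chromosome 13 at 40713802 to 40738238 (gene ID 21418), encodes the AP-2 factor that acts beside MITF on melanocyte genes. Covered length was 8222 and 9240 bp in sgScramble and 8201 and 8853 bp in sgArid1a replicates 1 and 2, with overlapping groups. The open start printed above, which also lies within the lncRNA gene Gm26688, was in the region at 40732799 to 40734360, in all lists, which covered 1497 and 1557 bp against 1400 and 1450 bp. Its fold percentile was low, 1.44 and 2.03 in the sgScramble and 0.586 and 0.554 in the sgArid1a lists. The strongest region, at 40694413 to 40695098, lay 18704 bp outside the gene and ranked at 95.8 and 97.0 against 85.3 and 88.7. Of the 7 regions of Tfap2a in all lists, 5 ranked lower by fold in both sgArid1a lists and 1 higher, where 30.9% and 20.7% of regions in all lists did over the genome. The lost region lay at 40705153 to 40705732, 8070 bp outside the gene (mean percentile 31.0).

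Tfap2b, on chromosome 1 at 19208908 to 19238845 (gene ID 21419), encodes the AP-2 relative of TFAP2A and had no peak in its gene body in any list. Its window held 2 regions, both in all lists. The region at 19205676 to 19206531, 2377 bp from the gene, was among the strongest of the genome by fold, at percentiles of 97.1 to 99.9. Its folds were 8.26 and 9.50 in the sgScramble and 7.05 and 8.82 in the sgArid1a replicates. By −log10 p its percentiles were lower, at 83.3 and 85.7 in the sgScramble and 76.2 and 83.5 in the sgArid1a lists. The other, at 19178742 to 19179932, lay nearest to the paralog Tfap2d and covered 1174 and 489 bp against 324 and 527 bp. Window totals were 1959 and 1253 bp against 1180 and 1306 bp, with overlapping groups, and sgScramble replicate 1 alone stood apart.

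Within the lists the rank of the strongest peak moved in both directions. The highest fold percentile of a window was higher in both sgArid1a lists at Sox10, Sox6 and Pax3 and lower in both at Sox5 and Tfap2a, and overlapped at Sox9, Sox4 and Tfap2b. Of 18311 windows with a peak in every list, 20.8% were higher and 22.6% lower. At Pax3 the values were 65.8 and 70.2 in the sgScramble and 83.7 and 74.3 in the sgArid1a replicates, from a region at 78215621 to 78217589 nearest to Gm2102. At Tfap2a they were 95.8 and 97.0 against 85.3 and 88.7. Ranked by −log10 p, the direction turned at Sox10 (-0.856 percentile points, sgArid1a minus sgScramble) and Sox6 (-2.42). Of the 89 regions in all lists, 28 (31.5%) were narrower and 8 (8.99%) wider in both sgArid1a lists, against 40.6% and 6.45% in the genome. By −log10 p percentile, 46 (51.7%) ranked lower and 6 (6.74%) higher in both sgArid1a lists, against 46% and 11.1%, and by fold percentile 28 (31.5%) lower and 17 (19.1%) higher, against 30.9% and 20.7%.

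Relatives of the same families and melanocyte genes on which these factors act or beside which they work were taken as 2 further lists. Of 25 other Sox, Pax and AP-2 genes, 22 had a peak, and covered length was lower in both sgArid1a libraries at 13 and higher at 0, where 65.3% and 1.7% of all windows were. They lost 12 of 125 regions (9.60%, against 12.9% in the genome) and gained 3 of 106 (2.83%, against 1.39%). Pax1 lost 2 of 3, Pax4 2 of 6 and Pax5, a B cell factor gene, 2 of 15. Of 25 melanocyte genes all had a peak, 14 were lower and 0 higher in covered length (against 65.3% and 1.7%), 24 of 228 regions were lost (10.5%, against 12.9%) and 7 of 197 gained (3.55%, against 1.39%). Met, a receptor gene that PAX3 can activate, lost 4 of 20 regions, Mitf 3 of 24 and Zeb2 3 of 16. The median difference in covered length was -13.0% over the 8 genes, -17.6% over the relatives, -17.0% over the melanocyte genes and -18.0% over all windows.

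Among the windows most like that of Sox10 in covered length per kb over the 4 libraries were those of Atp5d and Per1, at Euclidean distances of 14.1 and 17.7 bp per kb. Sox10 itself stood at 210 and 184 bp per kb in sgScramble and 178 and 171 bp per kb in sgArid1a replicates 1 and 2. For Pax3, at 130 and 129 against 103 and 120 bp per kb, they were Tcta, Exoc3l and Klf15, at 2.69, 3.75 and 4.24 bp per kb. With 4 libraries this likeness describes level and order only.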

How the data were processed

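For each of the 4 libraries the authors deposited its own list of broad peaks, without pooling. Every peak has 4 deposited values: a score, a fold (the ratio to background), the −log10 of a p-value and the −log10 of a q-value, read by the column order of the broad peak format since the lists have no header. In nearly all peaks the score only restates the q-value, and the smallest −log10 q was just above 1 in each list. Libraries were Omni-ATAC from 50000 cells per reaction, per the labels' protocols. The submitters' processing notes name STAR 2.5.3a, HOMER, GRCm38 and mm10 without their roles. Not given in the sources used here are the peak caller and any Tn5 offset. Depth and background move these values, so peaks were ranked only within their list.

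Peaks were merged where they overlapped by at least 1 bp. Coordinates are 1-based on GRCm38 (mm10), and genes and promoters came from RefSeq GRCm38.p6, matched by symbol (8 of 8 genes, 5 of 8 with promoters). The gene table gives no strand, so gene ends are named by coordinate. A percentile is a peak's rank by fold within its list, taken from the highest peak where a region held more than 1. Groups were compared by the exact two-sided permutation test. The members, gene lists and tests were chosen with earlier results of these data known. The text names all 8 genes, and for each the regions over its ends, the strongest region in all lists and the strongest lost one. Other regions were named after their values were seen. Of each further list, the 3 genes with the most lost regions were named. The 3 gene windows nearest to Sox10 and to Pax3 in covered length per kb were named, except 1 that is not reported here. Alternatives were stricter thresholds, equal-length lists, other windows, merging, overlap and widths, scaling by list length, the rank column, each library left out and a replicate block. Merging and the calling of lost and gained regions were tested on lists simulated from the merged regions. Covered length was checked against a direct count in the list of sgScramble replicate 1, and the permutation test on made-up values. Other steps were not tested in this way. Versions were Python 3.11.15, pandas 2.3.3, numpy 2.4.6, SciPy 1.17.1 and matplotlib 3.10.9.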

Additional observations from a re-analysis of the deposited data

How the results depend on the processing

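The lost count, 16 of 117 over the 8 genes (13.7%, against 12.9% in the genome), was 6 of 47 when only the upper 50% by fold was kept (12.8%, against 15.1% under the same setting) and 4 of 91 with lists of equal length (4.40%, against 6.97%). Keeping only peaks that reached 500 bp gave 7 of 84 (8.33%, against 13.7%), and keeping only those that reached a −log10 q of 5 gave 11 of 73 (15.1%, against 21.5%). With 10 kb on each side of the gene body it was 10 of 90 (11.1%) and in the gene body only 9 of 83 (10.8%), both against 12.9%. It ranged from 18 of 117 (15.4%, against 17.4%) to 39 of 145 (26.9%, against 20.8%) when each library was left out in turn. The gained count, 0, was 1 of 38 with the upper 50% by fold (2.63%, against 4.25%), 3 of 88 with lists of equal length (3.41%, against 4.37%) and 1 of 70 with peaks that reached 500 bp (1.43%, against 1.29%). With a library left out it ranged from 0 to 8 of 104 (7.69%, against 7.52%). The summed difference in covered length, -22590.5 bp, was -1564 bp with lists of equal length and ranged from -31700.5 to -13480.5 bp with a library left out. Per Mb of list it turned to 152 bp per Mb. With the replicate number as a block the summed difference stays at -22590.5 bp by construction, since both groups hold the same replicate numbers. For the same reason the block could turn no direction. Its exact sign-flip p was 0.5, the smallest that 2 pairs can give. Window by window, the deviations of same-numbered libraries were hardly correlated (r = 0.0222 over 19153 windows). Over the whole lists, replicate 1 had fewer peaks and less covered length than replicate 2 in both groups. Whether the numbers mark a shared batch cannot be told from 2 libraries a group. The labels do not say that they do, so the numbers are not treated as pairs.

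For single genes, differences are sgArid1a minus sgScramble in covered length. Per Mb of list they turned at Sox10 (41.5 bp per Mb), Sox5 (8.72), Sox6 (7.12), Sox4 (17.6), Pax3 (34.5) and Tfap2a (30.4). With lists of equal length they turned at Sox4 (124.5 bp), Pax3 (2828 bp) and Tfap2a (795 bp), and with a −log10 q of at least 5 at Sox4 (8.50 bp). With 10 kb on each side they turned at Sox10 (35.0 bp), Sox4 (333 bp) and Tfap2b (43.0 bp), and in the gene body only at Sox10 (236 bp), Sox4 (530.5 bp) and Tfap2a (150.5 bp). With a library left out they ranged from -760 to 172 bp at Sox4 and from -713 to 305 bp at Tfap2a. For the highest fold percentile, ranking by −log10 p turned Sox10 (-0.856 points), Sox9 (-3.88), Sox6 (-2.42) and Sox4 (-0.983). With a library left out it ranged from -6.88 to 7.55 at Sox9, from -3.86 to 9.12 at Sox4 and from -2.77 to 0.0708 at Tfap2b. For the median fold percentile, lists of equal length turned Sox5 (-0.0910), Pax3 (-12.1), Tfap2a (-6.38) and Tfap2b (0.907), and ranking by −log10 p turned Sox5 (-5.10), Pax3 (-0.328) and Tfap2a (-4.22). With a library left out it ranged from -27.8 to 0.524 at Sox9, from -0.901 to 5.16 at Sox5, from -1.44 to 4.83 at Pax3, from -9.33 to 9.60 at Tfap2a and from -4.47 to 3.48 at Tfap2b. Where a direction turned, the cause was not tested. With 2 libraries a group, unknown depth and lists of unequal length, small differences in covered length or rank cannot be told from list length.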
